A study of Mus musculus with 6 samples.

Results

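Transcripts of 10 focal adhesion genes, the kinases FAK and Src and their main adaptors and linkers, are described here in mouse mammary tumor spheroids. The genes were chosen by name for their roles, with earlier results of these data known, and all 10 were found among the 54146 genes of the table and passed the filter on low values. Focal adhesions are the sites where integrins, the receptors for extracellular matrix, are tied to the actin cytoskeleton inside the cell. Talin and kindlin bind integrin tails and switch the receptor to its active state, the complex of integrin-linked kinase and parvin joins the tail to actin, and vinculin and zyxin strengthen the link under load. Focal adhesion kinase (FAK) and Src are recruited to the same sites, phosphorylate the adaptors paxillin and p130Cas, and pass the signal on toward ERK and cell growth. Ptk2 (FAK) and Src are the kinases. Tln1 (talin-1), Fermt2 (kindlin-2), Ilk (integrin-linked kinase, a pseudokinase that acts as a scaffold), Parva (alpha-parvin), Pxn (paxillin), Bcar1 (p130Cas), Vcl (vinculin) and Zyx (zyxin) are the adaptors and linkers.

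The genes were measured by RNAseq in D2A1, a mouse mammary tumor cell line, grown as spheroids in Matrigel in medium with serum. Spheroids were treated with recombinant SLURP1 (rSLURP1), a secreted Ly6/uPAR-related protein, or with the control protein rGST (recombinant GST), and 3 libraries were made from each. The labels give 50 nM for both proteins, and the study's methods give harvest on day 5. The study examined whether SLURP1 acts on integrin, FAK and ERK signaling, and the comparison below asks which transcripts of the focal adhesion differed with the treatment. The labels name 1 cell line and do not say whether libraries came from separate cultures, so p-values measure the spread between these libraries, which may be technical.

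Expression is given as TPM, a transcript abundance that is corrected for transcript length, so that levels can be compared between genes. TPM keeps no read depth. Fold changes are differences of log2(TPM + 1), rSLURP1 minus rGST, tested with limma over 12301 genes, and a gene was called when its adjusted p-value (Benjamini-Hochberg over all of them) did not exceed 0.05. Over the tested genes the median was -0.33 on the log2 scale, a shift whose source was not tested, and each member is therefore also given relative to it and after median-ratio scaling, which brings the median of all genes to 0.00. From 11906 to 12449 genes reached 1 TPM per library. Of the markers of mammary epithelium, Epcam, Krt5 and Krt14 were listed at 0 in all 6 libraries, and the list's summed TPM, nearly all of it Krt18, was 193 to 201 with rGST and 197 to 201 with rSLURP1. The summed TPM of 7 mesenchymal markers, led by Fn1 and Vim, was 6879 to 7069 with rGST and 3770 to 4008 with rSLURP1. It moved together with the adaptor genes below, and its part in their change was not tested. Endothelial and pericyte markers summed to under 1 TPM in every library. Of the leukocyte markers Ptprc did not exceed 0.010 TPM and Cd68 made up nearly all of a sum of 3.58 to 4.08 TPM with rGST and 7.85 to 10.6 with rSLURP1. In bulk RNA, fewer cells of a type and less RNA per cell cannot be told apart.

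All 8 adaptor and linker genes fell with rSLURP1. The smallest of these changes was that of Zyx, whose mean TPM fell by 31.5%, and the largest that of Vcl, whose mean TPM fell by 53.0%. The mean of Src fell by 10.7%, and the Ptk2 libraries of both treatments overlapped. In all, 9 of the 10 members were called lower and 0 were called higher, against 58.5% of all tested genes called lower and 8.66% called higher. With the study's cutoff of 2-fold asked for as well, 1 member (Vcl) was lower. Every rSLURP1 library lay below every rGST library for 9 members, a separation that 61.7% of all tested genes also showed. The members therefore have to be read against the general shift, and after median-ratio scaling the 10 genes parted by role. Then the 8 adaptors and linkers were called lower and both kinases were called higher, where 25.2% of all tested genes were called lower and 26.0% higher. The median log2 fold change of the 8 adaptors and linkers was -0.61 as deposited and -0.26 after median-ratio scaling.

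**Figure D1:**
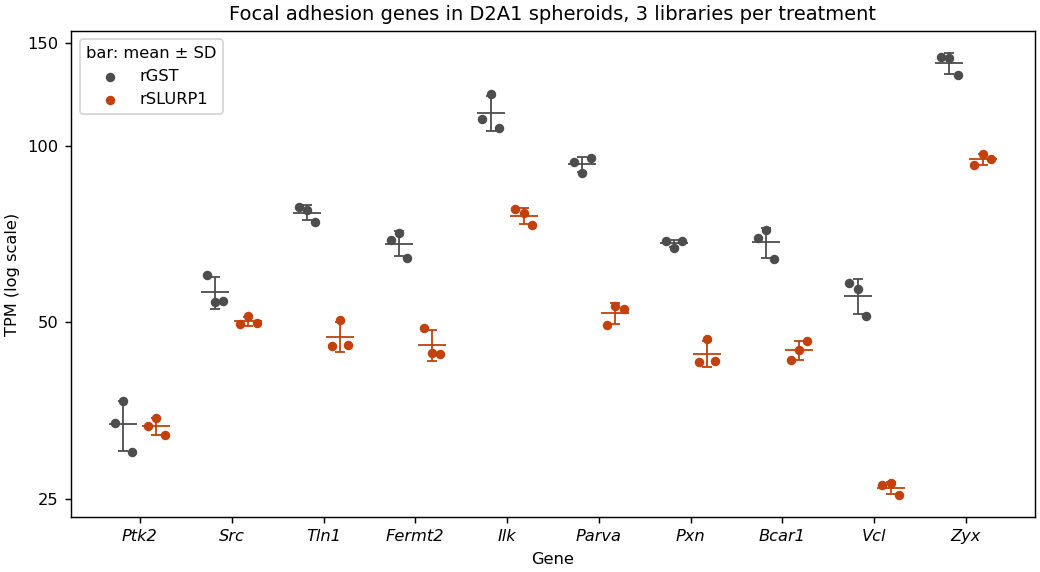
TPM (log axis) of the 10 genes in each library, with rGST in grey and rSLURP1 in orange; points are libraries, and bars are the mean ± SD of 3 libraries. The rGST and rSLURP1 points overlap for Ptk2 and are apart for the other 9 genes, and Vcl, above Ptk2 with rGST, lies below it with rSLURP1.

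FAK, encoded by Ptk2 (ENSMUSG00000022607.17; GRCm38 chromosome 15, 73205102 to 73423280, minus strand), is the tyrosine kinase that starts signaling at the adhesion. Its TPM was 33.7, 36.6 and 30.1 in the rGST libraries and 33.2, 34.3 and 32.1 in the rSLURP1 libraries. All 3 rSLURP1 values lay inside the range of the rGST values. The log2 fold change of Ptk2 was -0.01 with a 95% interval from -0.18 to 0.17 (adjusted p = 0.952 in limma), so a difference within that interval was not detectable here. Relative to the median of all genes it was 0.32 higher, and 79.8% of the tested genes had a lower fold change. With median-ratio scaling Ptk2 was called higher, at a log2 fold change of 0.34 (standard error, SE, 0.073, adjusted p = 0.00682 in limma).

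Src (ENSMUSG00000027646.15; chromosome 2, 157418444 to 157471862, plus strand) encodes the kinase that joins FAK and completes its activation. Its TPM was 60.3, 54.1 and 54.3 with rGST and 49.6, 51.2 and 49.8 with rSLURP1. The groups were apart by 2.88 TPM at their nearest values, and the first rGST library was the highest. Src had a log2 fold change of -0.16 (95% interval -0.29 to -0.03, adjusted p = 0.0350 in limma). That call was lost without a filter (adjusted p = 0.0547), with no trend in the variance (adjusted p = 0.0603) and without mitochondrial genes (adjusted p = 0.0713). It was also lost when rGST replicate 1, rSLURP1 replicate 1 or rSLURP1 replicate 3 was left out (adjusted p = 0.118, 0.0837 and 0.0843). With median-ratio scaling the direction turned and Src was called higher, at 0.19 (adjusted p = 0.0196 in limma).

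Talin-1 and kindlin-2 act together to activate integrins. Tln1 (ENSMUSG00000028465.16; chromosome 4, 43531519 to 43562691, minus strand) had 78.7, 77.8 and 74.3 TPM with rGST and 45.5, 50.4 and 45.7 with rSLURP1. Every rSLURP1 value was lower than every rGST value, and the mean fell by 38.6%. On the log2 scale Tln1 changed by -0.69 (SE 0.0551, adjusted p = 3.34e-05), and by -0.34 after median-ratio scaling (adjusted p = 6.51e-04) and by -0.18 once transcript length and GC content were corrected for (adjusted p = 0.0118). Fermt2 (ENSMUSG00000037712.16; chromosome 14, 45458795 to 45530118, minus strand) had 69.1, 70.9 and 64.4 TPM with rGST and 49.0, 44.2 and 44.1 with rSLURP1. The groups did not overlap, and the mean fell by 32.8%. On the same scale Fermt2 changed by -0.56 (SE 0.0609, adjusted p = 1.41e-04), and by -0.22 after median-ratio scaling (adjusted p = 0.0273), the highest adjusted p-value of the 8 adaptors and linkers under that scaling.

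Ilk and alpha-parvin form, with the LIM protein PINCH, the complex that bridges integrin tails to actin. Ilk (ENSMUSG00000030890.16; chromosome 7, 105736592 to 105742925, plus strand) had 111.3, 122.7 and 107.4 TPM with rGST and 78.0, 76.7 and 73.3 with rSLURP1. The log2 fold change of Ilk was -0.57 (SE 0.0580, adjusted p = 1.02e-04 in limma), and the groups were separate. Parva (ENSMUSG00000030770.15; chromosome 7, 112427505 to 112591692, plus strand) had 93.9, 90.1 and 95.5 TPM with rGST and 49.4, 53.4 and 52.7 with rSLURP1. Its mean fell by 44.4%, the largest change of the 10 genes after that of Vcl. For Parva the log2 fold change was -0.83 (SE 0.0484, adjusted p = 8.31e-06), and 11.5% of the tested genes had a lower one. With median-ratio scaling Ilk was at -0.22 (adjusted p = 0.0138) and Parva at -0.48 (adjusted p = 8.80e-05). Of the other parts of this complex, 2 that reached 1 TPM in all libraries were called lower too, with log2 fold changes of -0.38 for Lims1 (PINCH-1, adjusted p = 0.00134) and -0.32 for Rsu1, which binds PINCH (adjusted p = 0.00312). Neither Lims1 (-0.04, adjusted p = 0.627) nor Rsu1 (0.03, adjusted p = 0.727) was called after median-ratio scaling.

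Paxillin and p130Cas are the adaptors that FAK and Src phosphorylate, and their 2 genes changed by like amounts. Pxn (ENSMUSG00000029528.18; chromosome 5, 115506676 to 115555987, plus strand) had 68.9, 67.0 and 68.7 TPM with rGST and 42.8, 46.8 and 43.0 with rSLURP1. Bcar1 (ENSMUSG00000031955.10; chromosome 8, 111710474 to 111743809, minus strand) had 69.6, 71.9 and 64.1 TPM with rGST and 43.1, 44.9 and 46.4 with rSLURP1. For both genes the treatments did not overlap, with rSLURP1 below rGST. The log2 fold changes were -0.61 (SE 0.0507, adjusted p = 3.92e-05 in limma) for Pxn and -0.60 (SE 0.0577, adjusted p = 8.14e-05) for Bcar1. With median-ratio scaling they were -0.27 (adjusted p = 0.00135) and -0.25 (adjusted p = 0.00790).

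Vinculin, which binds talin and actin and is drawn to adhesions under force, gave the largest fall. Vcl (ENSMUSG00000021823.10; chromosome 14, 20929398 to 21033676, plus strand) had 58.3, 56.9 and 51.2 TPM with rGST and 26.3, 26.5 and 25.4 with rSLURP1. The lowest rGST value was 24.7 TPM above the highest rSLURP1 value. On the log2 scale Vcl changed by -1.06 (SE 0.0617, adjusted p = 8.49e-06 in limma), and by -0.71 after median-ratio scaling (adjusted p = 6.73e-05). Vcl was the 1 member lowered at least 2-fold, a change that 7.06% of all tested genes showed, and 6.34% of the tested genes had a lower fold change. Zyx (ENSMUSG00000029860.16; chromosome 6, 42349630 to 42360213, plus strand), whose product gathers actin polymerization factors at adhesions under tension, had 142.1, 141.0 and 132.0 TPM with rGST and 92.9, 96.9 and 94.8 with rSLURP1. Zyx was the most abundant member and fell least of the 8 adaptors and linkers, by -0.54 on the log2 scale (SE 0.0438, adjusted p = 3.67e-05). With median-ratio scaling it was at -0.19 (adjusted p = 0.00617).

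**Figure D2:**
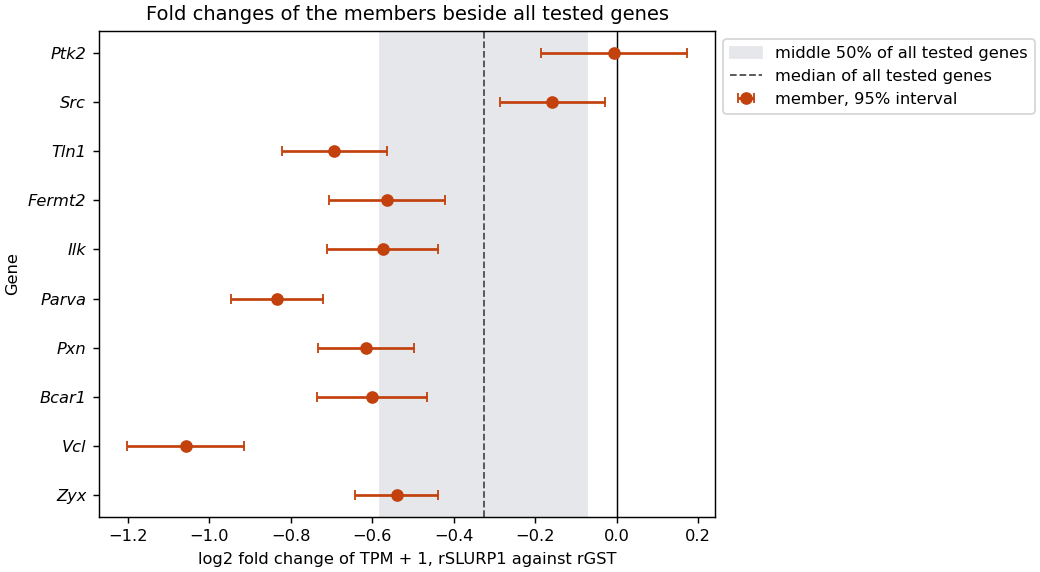
Log2 fold change of TPM + 1 (horizontal axis) of each member with its 95% interval from limma; the grey band holds the middle 50% of all 12301 tested genes and the dashed line is their median, -0.33. The intervals of Ptk2 and Src lie to the right of the median and those of the other 8 genes to its left.

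The position of the members relative to the median gene held over most ways of fitting the data. In the fit of the TPM as deposited and in all 17 alternatives, the 8 adaptors and linkers were below the median of all genes. Ptk2 was above that median in each. The alternatives were other filters, scalings and pseudocounts, a block, no variance trend, a length and GC correction, and each library left out. A block or the lack of a variance trend cannot change a fold change in this balanced design, so those alternatives repeat another fit here. Src lay above the median except without a filter, where it was at -0.06 relative to it.

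**Figure D3:**
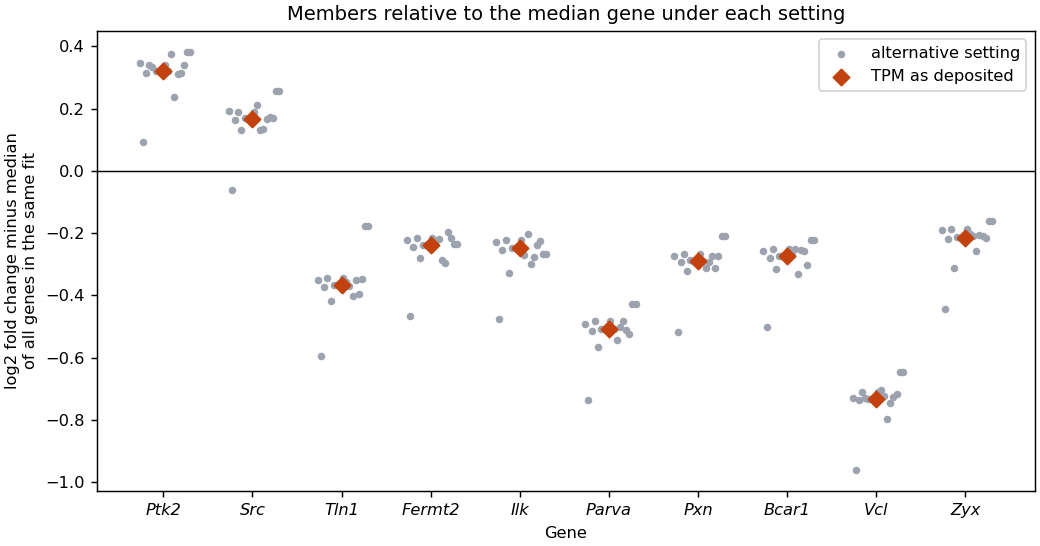
Log2 fold change of each member minus the median of all genes in the same fit (vertical axis); orange diamonds are the TPM as deposited and grey points the 17 alternatives. Ptk2 lies between 0.09 and 0.38 and Vcl between -0.96 and -0.64, and 1 alternative puts Src below 0. Alternatives that only add a block or drop the variance trend repeat the value of another point by construction.

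Some of these genes share exon bases with a neighbor on the other strand, and the sources used here do not say whether counting used strand, so reads from such stretches cannot be assigned with certainty. Vcl shares 2090 exon bases with Ap3m1, which had 37.5 TPM with rGST and 39.1 with rSLURP1. Ilk shares 2106 exon bases with Taf10, which had 137.9 TPM with rGST and 178.0 with rSLURP1, a higher level where that of Ilk was lower. Shared bases were counted over the exons of all transcripts, and the longest transcript has 2278 bases for Ilk and 5267 for Vcl. Another 355 exon bases of Ilk are shared with Rrp8, which had 19.3 TPM with rGST and 14.2 with rSLURP1. Tln1 shares 360 exon bases with Creb3 and Zyx 236 with Epha1, the latter at 0.0030 TPM or less.

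Promoters were looked at for short motifs of the factors known to control adhesion and growth genes. The CArG box is the site of serum response factor (SRF), which with its actin-sensing cofactors drives many cytoskeletal genes. RefSeq promoter entries (GRCm38.p6) were matched for 7 of the 10 members, with 9 promoters in all, and the 250 bases upstream of each start were searched on both strands. Ptk2, Pxn and Parva had no matched entry. A CArG box was found in 2 of the 9 promoters, those of Vcl and Fermt2, against 1.47% of 32851 promoters in the table. The 80 bases that hold it are shown for both genes, 5′ to 3′ on the strand of the gene, with the CArG box in capitals. They are chr14:20929148-20929227 on the plus strand for Vcl and chr14:45530236-45530315 on the minus strand for Fermt2, in each case 250 to 171 bases before the RefSeq start.
Vcl: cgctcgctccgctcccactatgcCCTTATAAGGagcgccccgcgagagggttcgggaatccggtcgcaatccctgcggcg
Fermt2: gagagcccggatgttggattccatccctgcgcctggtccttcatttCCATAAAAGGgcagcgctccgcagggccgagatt
The box of Vcl runs from 227 to 218 bases before the start and that of Fermt2 from 204 to 195. The log2 fold changes of these genes were -1.06 for Vcl and -0.56 for Fermt2, and a link between the box and the fall was not tested. The TEAD motif GGAATG was found in the promoter of Vcl (12.6% of all promoters hold it), the AP-1 motif TGANTCA in that of Zyx (6.75% of all), and the KLF4 motif CCCCACCC in those of Src and Bcar1 (9.05% of all). None of these matches overlapped another. The Src entry with the match (chr2:157424043-157424342) lies inside the gene as placed above, at a RefSeq start downstream of its first base. The Zyx entry (chr6:42349578-42349877) spans the first base given above for that gene, and its match lies past that base. A match describes the letters of these windows and not a bound site.

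The levels of the members also changed in order. With rGST the order from the highest mean was Zyx (138.4 ± 5.52 TPM, SD, n = 3), Ilk (113.8 ± 7.97), Parva (93.1 ± 2.77) and Tln1 (76.9 ± 2.33), and no neighbors in this part of the order overlapped. Bcar1 (68.5 ± 4.02), Pxn (68.2 ± 1.04) and Fermt2 (68.1 ± 3.35) followed and could not be told apart by their libraries. Src (56.2 ± 3.49) and Vcl (55.5 ± 3.76) overlapped too, and Ptk2 (33.5 ± 3.28) was the lowest. With rSLURP1 Zyx (94.9 ± 1.99) and Ilk (76.0 ± 2.40) were again the highest. Below them Parva (51.8 ± 2.12), Src (50.2 ± 0.860), Tln1 (47.2 ± 2.78), Fermt2 (45.8 ± 2.77), Bcar1 (44.8 ± 1.66) and Pxn (44.2 ± 2.27) formed a run in which each overlapped the next. Ptk2 (33.2 ± 1.10) came next, and Vcl (26.1 ± 0.614) was the lowest, below Ptk2 in every rSLURP1 library and above it in every rGST library. Src moved from rank 8 to rank 4 by mean while its own TPM was lower.

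Shares within the 10 genes do not depend on how a library is scaled. The summed TPM of the members was 772.2 ± 26.3 with rGST and 514.3 ± 9.75 with rSLURP1 (± SD, 3 libraries each). Of this sum, Ptk2 held 4.29%, 4.64% and 4.05% in the rGST libraries and 6.52%, 6.54% and 6.33% in the rSLURP1 libraries. The share of Src was 7.67%, 6.85% and 7.32% with rGST and 9.73%, 9.74% and 9.82% with rSLURP1. Both kinases thus held a larger share in every rSLURP1 library than in any rGST library. The share of Vcl went the other way, from 7.18% ± 0.259 to 5.07% ± 0.0839, and that of Parva from 12.1% ± 0.734 to 10.1% ± 0.355 (± SD, 3 libraries each). Ilk, at 14.7% ± 0.728 with rGST and 14.8% ± 0.449 with rSLURP1, differed by less than its spread, as did Fermt2, Pxn and Bcar1. Tln1 held 9.96% ± 0.0928 and then 9.18% ± 0.365, and Zyx 17.9% ± 0.147 and then 18.4% ± 0.236, without overlap of the libraries.

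Several members have a close paralog that can take a like role, and the share of each member in its pair was compared over libraries. Of 8 pairs, 3 could not be tested because the paralog was nearly absent. Ptk2b (PYK2) did not exceed 0.150 TPM, Tgfb1i1 (Hic-5, the paralog of paxillin) did not exceed 0.580 TPM, and Fermt1 (kindlin-1) was listed at 0 in every library. The largest shift was between p130Cas and Nedd9 (HEF1), its relative in the Cas family. Nedd9 fell from 26.6 ± 0.0265 to 8.69 ± 1.03 TPM (± SD, 3 libraries each), a change of -1.51 on the log2 scale (adjusted p = 7.52e-06 in limma). Bcar1 therefore made up 72.4%, 73.0% and 70.7% of the pair with rGST and 84.2%, 82.0% and 85.1% with rSLURP1. Talin-2 (Tln2) fell too, with a log2 fold change of -1.15 beside -0.69 for talin-1 (adjusted p = 1.57e-04 in limma), and the share of Tln1 was 88.3% ± 0.622 with rGST and 92.1% ± 1.03 with rSLURP1 (± SD, 3 libraries each). Lpp, a paralog of zyxin, had a log2 fold change of -0.76 (adjusted p = 2.84e-04 in limma). The share of Zyx beside it was 93.9%, 93.8% and 93.8% with rGST and 94.4%, 95.3% and 95.4% with rSLURP1. Trip6, another zyxin family gene, was more abundant than Lpp, at 52.5 ± 1.51 TPM with rGST and 48.8 ± 4.14 with rSLURP1. Whereas Lpp fell more than Zyx (-0.54), Trip6 was not called as deposited, at -0.11 (adjusted p = 0.191 in limma), and its libraries overlapped. Under median-ratio scaling Trip6 was called higher (0.24, adjusted p = 0.00891 in limma). The share of Zyx beside Trip6 was not tested.

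Parva beside Parvb and Src beside Fyn held a smaller share with rSLURP1 than with rGST. Parvb (beta-parvin) stood at 12.5 ± 0.376 TPM under rGST and at 12.9 ± 0.237 under rSLURP1 (± SD, 3 libraries each), a log2 fold change of 0.05 (95% interval -0.11 to 0.20, adjusted p = 0.552 in limma). After median-ratio scaling it was called higher, at 0.38 (adjusted p = 0.00203). The share of Parva was 88.1%, 88.2% and 88.2% with rGST and 79.5%, 80.2% and 80.4% with rSLURP1. Fyn, a Src family kinase, rose from 14.3 ± 0.733 to 16.6 ± 0.520 TPM, a log2 fold change of 0.20 (adjusted p = 0.0320 in limma). That call was lost when any 1 of 4 libraries was left out (adjusted p of 0.0846 and 0.0905 without rGST replicate 1 or 3, and of 0.0877 and 0.0744 without rSLURP1 replicate 1 or 2). The share of Src in the pair with Fyn was 79.7% ± 1.47 with rGST and 75.2% ± 0.605 with rSLURP1. Yes1, another Src family kinase, was more abundant than Fyn, at 35.8 ± 1.91 TPM with rGST and 34.4 ± 3.57 with rSLURP1. It was not called as deposited (log2 fold change -0.06, adjusted p = 0.545 in limma). With median-ratio scaling it was called higher (0.28, adjusted p = 0.0186). The share of Src beside Yes1 was not tested. In each of the 5 pairs the libraries were separated by treatment (two-sided exact permutation test, p = 0.1 for each pair, Benjamini-Hochberg adjusted p = 0.1 over 5 pairs). With 3 libraries against 3 that is the smallest p-value the test can give, so no pair could reach 0.05.

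**Figure D4:**
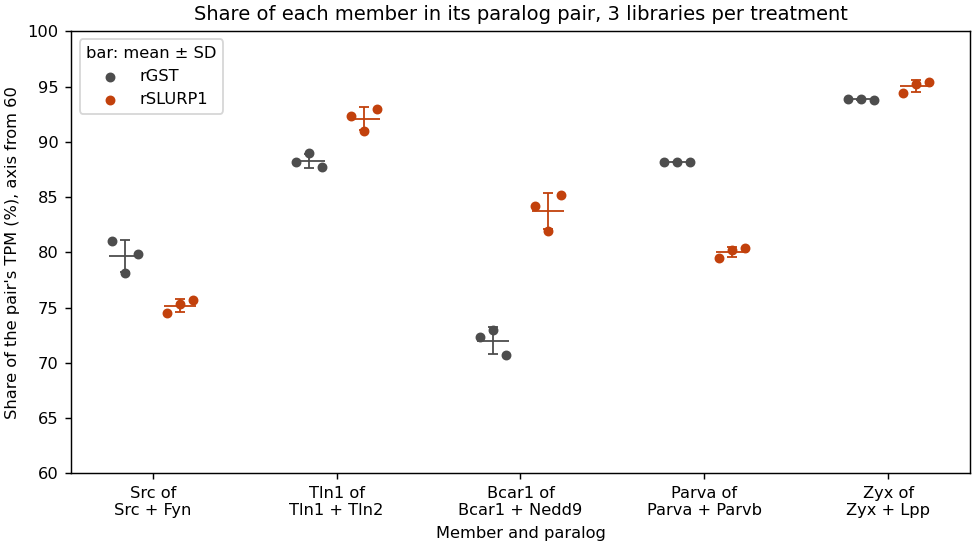
Share of each member in the summed TPM of the member and the paralog set beside it (vertical axis, percent, starting at 60). Points are 3 rGST (grey) and 3 rSLURP1 (orange) libraries, with bars for the mean ± SD. The share of Bcar1, Tln1 and Zyx is higher and that of Src and Parva lower in each rSLURP1 library than in each rGST library.

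A wider list of 71 other adhesion genes, grouped by role, was set beside the members. Of these, 57 passed the filter. Among them 37 were called lower (64.9%, against 58.5% of all tested genes), 4 higher (against 8.66% of all), and 16 were not called. Of the 57, 3 (Lck, Lims2 and Tns4) did not reach 1 TPM in every library, and without them 36 of 54 were lower and 3 higher. The median log2 fold change of the 57 was -0.38, near that of all genes (-0.33). After median-ratio scaling 18 of the 57 were lower (Lims2 among them) and 20 higher (Lck among them), with a median of -0.04. Under that scaling 25.2% of all tested genes were lower and 26.0% higher. The 8 adaptor and linker members had medians of -0.61 and -0.26 on the same scales. Members are counted with their role in what follows.

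The FAK, Src and Abl family kinases stood highest of the roles, with a median log2 fold change of -0.06 over 8 tested genes. In this group 2 were called lower (Src and Abl1) and 2 higher (Fyn and Lck), where 58.5% of all tested genes were lower and 8.66% higher. Lck passed the filter through its rSLURP1 libraries, where it was high, and without it 2 of 7 genes were lower and 1 higher, with a median of -0.07. After median-ratio scaling 6 of the 8, with Lck still among them, were called higher and 1 lower, where 26.0% of all tested genes were higher and 25.2% lower. Lck, a kinase known from T cells, had 0.960, 0.270 and 1.35 TPM with rGST and 1.73, 2.59 and 2.16 with rSLURP1, a log2 fold change of 0.80 (adjusted p = 0.0216 in limma). This call was lost without a filter (adjusted p = 0.0637) and without rSLURP1 replicate 2 or 3 (adjusted p = 0.0689 and 0.0542). Of the 6 brakes on FAK and Src, 3 were called lower and 1 higher, and 1 and 2 after median-ratio scaling. Csk, the kinase that holds Src inactive, had a log2 fold change of -0.07 as deposited (adjusted p = 0.269 in limma). Ptpn12 (PTP-PEST), a phosphatase that acts on p130Cas, rose from 59.8 ± 2.53 to 75.2 ± 1.88 TPM (± SD, 3 libraries each). Its log2 fold change was 0.33 (adjusted p = 6.52e-04 in limma). Both were called higher after median-ratio scaling, Csk at 0.27 (adjusted p = 0.00386) and Ptpn12 at 0.68 (adjusted p = 2.59e-05). Pag1, a membrane anchor of Csk, was low and fell, from 3.13 ± 0.321 to 1.03 ± 0.0265 TPM.

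The integrin tail activators had the lowest median of the roles, -0.63 over 6 tested genes, of which 4 were called lower and 0 higher as deposited, and 4 and 2 after median-ratio scaling. Apbb1ip (RIAM), which brings talin to the membrane, fell with a log2 fold change of -0.97 (adjusted p = 1.14e-04 in limma). The small GTPases Rap1a and Rap1b, at -0.09 and -0.02, were not called as deposited. They were the 2 called higher after median-ratio scaling, at 0.26 (adjusted p = 0.0109 in limma) and 0.33 (adjusted p = 0.00213). All 5 tested paxillin and Cas adaptors were called lower (median -0.60). Of the ILK, PINCH and parvin complex 5 of 6 were called lower (median -0.48), with Parvb the exception. Among the 5 was Lims2 (PINCH-2), which passed the filter through its rGST libraries, where it was high, and without it 4 of 5 were lower (median -0.38). Small roles such as these, and those described below, have to be read beside all tested genes. Of all tested genes 58.5% were called lower and 8.66% higher as deposited, and 25.2% and 26.0% after median-ratio scaling. The paxillin and Cas adaptors and the ILK complex each had 3 genes lower and 1 higher after median-ratio scaling. Lims2 (adjusted p = 0.0477 in limma) was still among the 3 of the ILK complex.

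Of 13 tested actin linkers, 8 were called lower and 1 higher, with a median of -0.46, and 6 and 3 after median-ratio scaling. Tns3 (tensin-3) had, with Nedd9, the largest decrease of the wider list, from 126.2 ± 6.91 to 43.4 ± 1.86 TPM (± SD, 3 libraries each), a change of -1.52 on the log2 scale (adjusted p = 1.11e-06 in limma) beside -1.51 for Nedd9. With a pseudocount of 0.1 Nedd9 was the lower, at -1.61 against -1.54, as it was after median-ratio scaling (-1.18 against -1.17). Flnc (filamin-C) fell from 52.5 ± 2.41 to 22.6 ± 0.400 TPM and Tns2 (tensin-2) from 135.6, 113.2 and 107.2 TPM in the rGST libraries to 59.2, 64.9 and 63.5 TPM in the rSLURP1 libraries. The 1 gene of this role that rose was Vasp, an actin polymerization factor that zyxin binds, with a log2 fold change of 0.30 (adjusted p = 0.00230 in limma). Among the 6 tested zyxin family genes 5 were called lower and 0 higher (median -0.51), and 3 and 2 after median-ratio scaling. Ajuba fell most of them, from 69.0 ± 4.99 to 30.8 ± 1.80 TPM. Of the genes listed here as integrin activation inhibitors 3 of 4 were called lower (2 lower and 1 higher after median-ratio scaling). Among them was Kank2, a talin-binding protein whose place in that role was not tested, at -1.12 (adjusted p = 2.19e-06 in limma). The scaffolds and signaling adaptors that lead to Rac and Ras had 9 of 11 called lower, with a median of -0.38 near that of all genes (-0.33), and, after median-ratio scaling, 3 lower and 3 higher. Elmo1, a partner of the Rac activator Dock1, fell most of them, at -0.99 (adjusted p = 2.64e-04 in limma). Its level was low, at 3.74 ± 0.357 TPM with rGST and 1.38 ± 0.0656 with rSLURP1 (± SD, 3 libraries each). With a pseudocount of 0.1 its log2 fold change was -1.37.

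**Figure D5:**
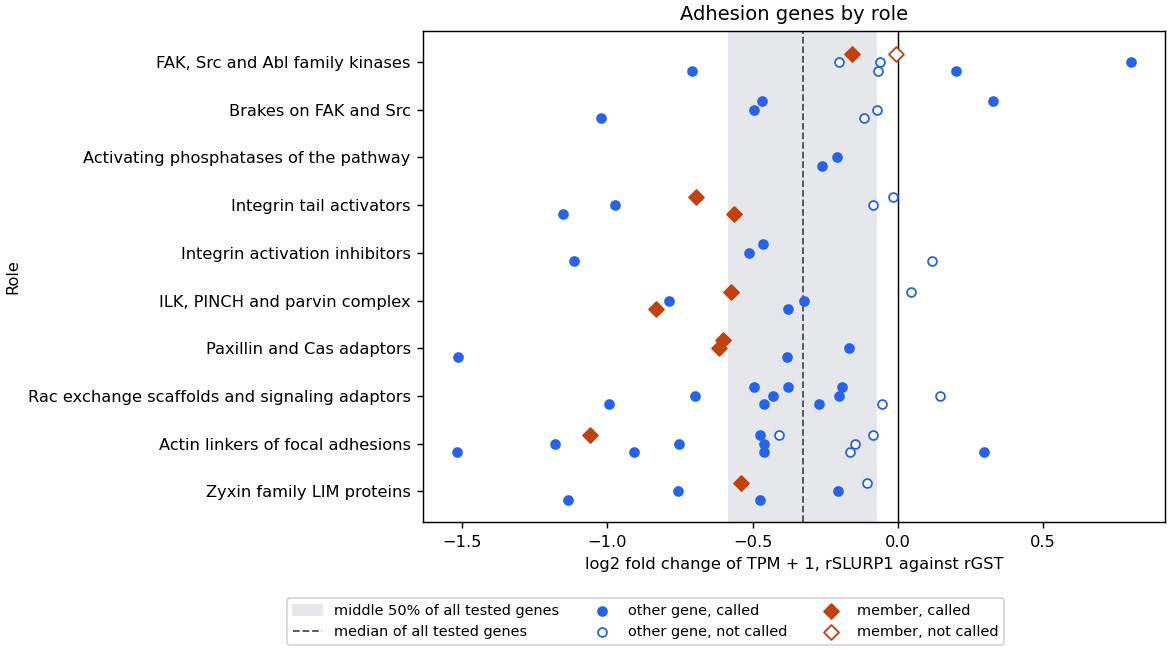
Log2 fold change of TPM + 1 (horizontal axis) of the tested adhesion genes by role; orange diamonds are the 10 members, blue circles the other genes, and filled symbols are genes called by limma. The dashed line is the median of all tested genes, -0.33, and 7 of the 8 FAK, Src and Abl family kinases, Lck among them, lie to its right.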

How the data were processed

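The 6 RNAseq libraries of D2A1 spheroids were grouped by treatment from the sample labels. Per the methods and the submitters' processing notes, reads were trimmed with Cutadapt, aligned to mm10 with STAR 2.5.2b and quantified per gene with RSEM on GENCODE M12. The authors deposited TPM for 54146 genes, 1 column per library. TPM keeps no depth, so precision rests on 3 libraries per treatment. For library preparation the labels give TruSeq mRNA, whereas the methods give Smart-seq2.

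Genes that reached 1 TPM in 3 or more libraries were tested on log2(TPM + 1) with limma 3.58.1 in R 4.3.3 (eBayes with trend, no block, Benjamini-Hochberg adjustment over all tested genes). Genes were called at an adjusted p-value of 0.05 or below alone. The study's methods ask for a change of at least 2-fold in addition, and counts with both are given as such. The test was checked on simulated data. Coordinates and exons came from GENCODE M21 (GRCm38). Members and lists were chosen with earlier results of these data known. Genes named besides members and paralogs were, by rule, the 8 called genes of the wider list with the largest decreases and the 8 with the largest increases relative to the median. Of the latter, 5 were lower as deposited and are not named. Other genes (Abl1, Csk, Lims1, Lims2, Rsu1, Tns4, Rap1a, Rap1b, Trip6, Yes1) were named after their values were seen.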

Additional observations from a re-analysis of the deposited data

How the results depend on the processing

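Each fit was repeated with a pseudocount of 0.1, without a filter, with a filter that asked for all 6 libraries, with 2 other scalings (median-ratio and quantile), with mitochondrial genes removed, with eBayes run without its trend, with a replicate block, and with each library dropped. A correction for length and GC content of transcripts, alone and with the block, was added after the data were seen. Each of the 8 adaptor and linker genes was called lower by limma in all 17 alternatives, with adjusted p-values up to 0.0367. Relative to the median of the same fit, Ptk2 ranged from 0.092 to 0.38, and Src was below it (-0.061) without a filter, where the median of all genes was -0.098.

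Instead of 0 members, 2 were called higher (Ptk2 and Src) under median-ratio, under quantile and under the length and GC setting, and likewise when the replicate block was added to the first or the last of these. Ptk2 was then at 0.34, 0.35 and 0.38 and Src at 0.19, 0.15 and 0.25. Ptk2 was also at 0.020 without mitochondrial genes, and from -0.078 to 0.060 with 1 library left out. Under the same 3 settings the wider list had 18, 18 and 15 genes lower (15 and 14 with the block) and 20, 16 and 21 higher (17 and 17 with the block). Of all 12301, 12301 and 12293 genes tested there, 3094, 2905 and 3013 were lower and 3198, 3111 and 2954 higher. With 1 library left out the wider list had 2 to 4 genes higher, the 2 without rSLURP1 replicate 2. The first 3 settings bring the median of all genes near 0 by construction, and no other cause was tested.

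Libraries with the same replicate number did not deviate together from their group means (correlations of -0.061 to -0.034), so the numbers were not taken to pair the samples. With the replicate block 7962 of all tested genes were called in place of 8265, and Src (adjusted p = 0.0615) and Fyn (adjusted p = 0.0532) were not called. A tally was made of the members, their tested paralogs and the genes named by rule. Of its 441 values of single genes under an alternative, 407 kept direction and call, 15 lost the call, 5 gained one and 14 changed sign. Genes named after their values were seen are not in this tally. Low TPM values such as those of Lck have unknown read depth behind them.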
